A study of Arabidopsis thaliana with 4 samples.

Results

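The genes described here are 10 alpha-expansins of Arabidopsis thaliana, EXPA1, EXPA3, EXPA4, EXPA5, EXPA6, EXPA8, EXPA10, EXPA11, EXPA15 and EXPA16, picked by their locus identifiers from the 33602 genes of the deposited expression table. They were followed in whole 14-day-old seedlings of the Col-0 ecotype. The control group (0 h, 2 libraries) came from seedlings raised in liquid culture on basal salts that lacked nitrogen, and the glutamate group (0.5 h, 2 libraries) from such seedlings after 0.5 h in the same salts with 2.5 mM glutamate. All seedlings were thus starved of nitrogen, all 4 libraries carry 1 batch label, and whether replicates were separate cultures is not in the labels, so the p-values below reflect a spread between libraries that may be technical. There was no transfer to glutamate-free salts as a control, so glutamate, the move and the elapsed time cannot be told apart.

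Expansins are secreted proteins that loosen the plant cell wall without cutting its polymers. They act best at acid pH, which plasma membrane proton pumps create in the wall, and they let cellulose microfibrils slip so that a cell under turgor can extend. In seedlings, alpha-expansins are known from growing hypocotyls, leaves and root elongation zones, from root hairs and from guard cells, and many of their genes are targets of the growth-promoting transcription factors of the auxin, brassinosteroid and gibberellin pathways.

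The alpha-expansin with the most transcript, EXPA1, fell 6.63-fold after glutamate, and EXPA8 and EXPA10 fell too. EXPA16 rose from a low level, EXPA5 rose when genes of low level were tested too, and EXPA3, EXPA4, EXPA6 and EXPA11 did not pass the test. EXPA1 and EXPA10, both lower after glutamate, have the coding sequences most like each other's, at 79.7% identity over 750 aligned bases, and their promoters share features that the sequences of the 250 bases before the annotated gene start show. The promoters of the 3 called falls and that of EXPA5, which rose only when genes of low level were tested too, are printed. They read 5′ to 3′ on the strand of the gene, from RefSeq's copy of the TAIR10.1 assembly. That of EXPA16, which rose with such genes left out, held no match to any motif and is not printed. Capitals mark matches to the motifs named in the next paragraph, on either strand.
EXPA1 (chr1:26141476-26141725, plus strand): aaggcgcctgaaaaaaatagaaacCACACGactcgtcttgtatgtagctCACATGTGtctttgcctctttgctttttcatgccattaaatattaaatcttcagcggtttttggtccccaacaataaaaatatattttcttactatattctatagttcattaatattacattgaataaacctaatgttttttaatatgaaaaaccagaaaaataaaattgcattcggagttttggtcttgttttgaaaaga
EXPA10 (chr1:9259182-9259431, plus strand): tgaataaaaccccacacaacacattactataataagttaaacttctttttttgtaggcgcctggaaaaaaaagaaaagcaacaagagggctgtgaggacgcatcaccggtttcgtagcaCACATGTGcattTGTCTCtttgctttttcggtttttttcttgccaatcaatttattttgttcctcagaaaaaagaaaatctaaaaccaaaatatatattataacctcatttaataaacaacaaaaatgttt
EXPA8 (chr2:16950706-16950955, minus strand): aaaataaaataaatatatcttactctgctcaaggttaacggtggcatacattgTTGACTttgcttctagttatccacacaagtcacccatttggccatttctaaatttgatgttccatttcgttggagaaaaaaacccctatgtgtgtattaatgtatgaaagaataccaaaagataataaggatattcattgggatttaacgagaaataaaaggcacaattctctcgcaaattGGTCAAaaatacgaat
EXPA5 (chr3:11013452-11013701, minus strand): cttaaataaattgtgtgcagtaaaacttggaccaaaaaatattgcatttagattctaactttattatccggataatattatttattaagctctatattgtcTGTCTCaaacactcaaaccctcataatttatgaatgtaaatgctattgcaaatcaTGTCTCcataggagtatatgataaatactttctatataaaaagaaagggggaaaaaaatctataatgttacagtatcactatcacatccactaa

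Promoters were searched on both strands for 8 motifs. CACGTG is the G-box and CATGTG a variant of the E-box, both contacted by bHLH factors. TGTCTC is an auxin response element. The W-boxes, bound by WRKY factors, were taken as TTGACC and, in a second spelling, as TTGACT. Brassinosteroid response elements were searched as CGTGCG and likewise as CGTGTG. The core of the site of calmodulin-binding CAMTA factors is CGCG. The E-box variant lay in the promoters of EXPA1, EXPA10 and EXPA11, and in 11.1% of 27443 promoters of protein-coding genes of the nuclear chromosomes. In EXPA1 and in EXPA10 it was read on both strands of a single 8-base palindrome, CACATGTG, which starts 201 bases before the gene start in EXPA1 and 131 in EXPA10. This palindrome, looked for after the promoters had been read, is in 0.375% of all promoters and in no other of the 10. EXPA8, which also fell, thus lacks it. The longest run that 2 of the 10 promoters share was also that of EXPA1 and EXPA10, with 14 bases (ctctttgctttttc), where the median over the 45 pairs was 9 bases. The auxin element was found in EXPA5, at 2 places, in EXPA6 and in EXPA10 (10.9% of all promoters). EXPA8 had both W-box spellings, of which the one ending in CC (12.2%) was also in EXPA4 and the one ending in CT (19.1%) in no other member. The brassinosteroid element CGTGTG was found in EXPA1 and EXPA6 (5.37%), and the CAMTA core in EXPA6 alone (10.1%). The G-box (6.49% of all promoters) and the other brassinosteroid element (1.57%) matched none of the 10, and EXPA3, EXPA15 and EXPA16 held no match to any motif. A match describes letters in this window and not a bound site. Runs shared by pairs of other promoters were not counted. Whether shared sequence bears on the falls of EXPA1 and EXPA10 was not tested.

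**Figure D1:**
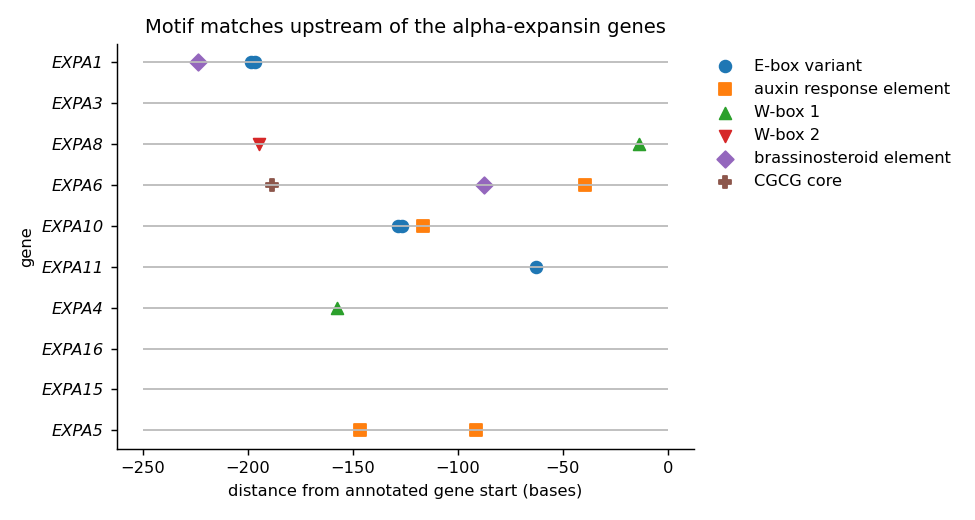
Motif matches in the 250 bases before the annotated start of each of the 10 genes; the x axis is the distance from the gene start in bases, each row is a gene, ordered by mean control level, and each symbol is a match on either strand. The overlapping pair of E-box symbols in EXPA1 and in EXPA10 is the palindrome shared by these genes.

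Levels are given as RPKM, reads scaled to gene length in kilobases and to the effective size of the library, as the authors deposited them. The libraries held 21776595 to 27674435 reads recovered from the table, and 3 reads in a gene of 1 kb were worth 0.104 to 0.152 RPKM. All 10 genes had a deposited shared-read fraction of 0, so their reads came out whole. Both shoot and root markers were present: the summed level of 8 shoot photosynthesis markers was 15980 to 16880 RPKM in control and 11690 to 13170 RPKM in glutamate libraries, and that of 10 root markers was 302.5 to 446.8 and 203.1 to 308.6 RPKM. Most of the root sum was PYK10, at 263.8 to 388.0 RPKM in control and 156.4 to 250.8 RPKM in glutamate libraries. Log2 changes were negative in 3 and positive in 3 of the 6 root markers that were tested. Of the root markers, 4 (COBL9, RHD2, LRX1 and WER) stayed under 1 RPKM in every library. Across the table, limma, with an adjusted p under 0.05 as its threshold, called 2888 of 17750 tested genes higher and 2585 lower. With libraries scaled to equal totals these counts were 2450 and 4361, so that higher genes made up 36.0% of calls in place of 52.8%, and the median log2 change of all genes was -0.23 in place of -0.06.

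EXPA1 (AT1G69530, TAIR10.1 chromosome 1, 26141726 to 26143538) is known for its part in the opening of stomata and in the founder cells of lateral roots. It stood at 87.9 and 61.5 RPKM in the control libraries and at 11.1 and 11.5 RPKM in the glutamate libraries, from 3543, 2166, 306 and 367 reads. Both glutamate libraries lay far below both controls. The group means were 74.7 ± 18.7 and 11.3 ± 0.261 RPKM (SD, n = 2). On the log2(RPKM + 1) scale the change was -2.60 ± 0.19 (SE), with an adjusted p of 0.000449 in limma. It ranked 28 from the lowest among the 17750 tested genes on that scale. The call held in all 16 alternatives, with changes of -2.86 to -2.35.

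EXPA8 (AT2G40610, chromosome 2, 16948791 to 16950705) stood at 13.6 and 7.61 RPKM in the controls and at 3.69 and 3.85 RPKM after glutamate. The groups did not overlap, but the controls differed 1.78-fold between themselves. The means were 10.6 ± 4.21 and 3.77 ± 0.114 RPKM, a log2 change of -1.23 ± 0.26 (adjusted p = 0.0186). EXPA10 (AT1G26770, chromosome 1, 9259432 to 9261313), known for its role in leaf and petiole growth, stood at 4.46 and 5.75 RPKM and at 2.15 and 3.04 RPKM. Its glutamate libraries again lay below both controls, with means of 5.10 ± 0.917 and 2.60 ± 0.627 RPKM and a log2 change of -0.77 ± 0.19 (adjusted p = 0.033). In fits that leave out a library, the lone library of its group is taken to vary like the pair of the other group. EXPA10 lost its call when control replicate 2 was left out (adjusted p = 0.0849), without glutamate replicate 1 (0.11) and without the filter on low levels (0.0667, or 0.0566 with a pseudocount of 0.1), whereas EXPA8 kept its call in all 16 alternatives.

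The 3 members with the least transcript had higher values after glutamate, and not all of them passed the test. EXPA16 (AT3G55500, chromosome 3, 20574752 to 20576249) stood at 0.644 and 0.522 RPKM in controls and 1.67 and 1.24 RPKM after glutamate, from 20, 14, 36 and 31 reads. Its glutamate libraries were both above its controls, with means of 0.583 ± 0.0868 and 1.46 ± 0.303 RPKM and a log2 change of 0.63 ± 0.17 (adjusted p = 0.0421). With a mean over the 4 libraries of 1.02 RPKM it lay just inside the minimum of 1 RPKM, which it reached through the glutamate group. It lost its call in 6 of 15 alternatives: without control replicate 1, control replicate 2 or glutamate replicate 1 (adjusted p = 0.0656, 0.116 and 0.166), and with quantile normalization, equal library totals or centring on control genes (0.0542, 0.0533 and 0.081).

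EXPA5 (AT3G29030, chromosome 3, 11011262 to 11013451), linked to brassinosteroid-dependent growth of the seedling, and EXPA15 (AT2G03090, chromosome 2, 916806 to 918671) lay just outside that minimum, with means of 0.913 and 0.854 RPKM. EXPA5 stood at 0.391 and 0.540 RPKM in controls and at 1.32 and 1.41 RPKM after glutamate, from 14, 17, 33 and 41 reads. EXPA15 stood at 0.550 and 0.483 RPKM and at 1.43 and 0.948 RPKM, from 21, 16, 38 and 29 reads. In both genes the glutamate libraries lay above the controls. In the fit without the filter, over 24705 genes, EXPA5 rose (log2 change 0.69 ± 0.10, adjusted p = 0.0112) and EXPA15 did not pass (0.52 ± 0.14, adjusted p = 0.0587). That fit called 11.8% of its genes higher and 8.92% lower, the latter with EXPA1 and EXPA8 among them. Because the added 1 RPKM shrinks changes at such levels, the ratio of pooled reads per effective library size was also computed: 3.02 for EXPA5, 2.29 for EXPA15 and 2.49 for EXPA16, with 95% exact intervals of 1.96 to 4.75, 1.51 to 3.52 and 1.63 to 3.88 that cover counting error only.

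**Figure D2:**
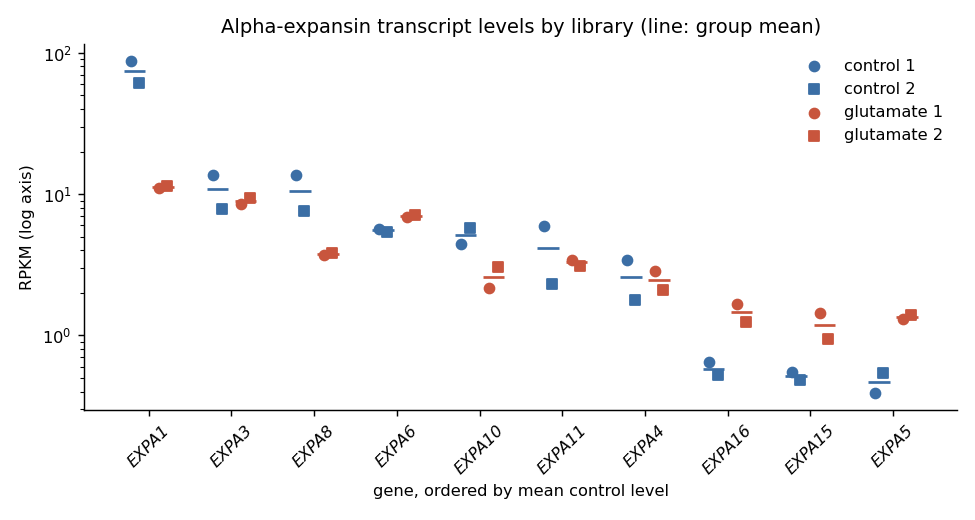
RPKM of each alpha-expansin in the 2 control and 2 glutamate libraries, on a log axis, with genes ordered by mean control level and a line at each group mean. EXPA1 drops from 87.9 and 61.5 to 11.1 and 11.5 RPKM, EXPA8 and EXPA10 lie lower after glutamate, and EXPA16, EXPA15 and EXPA5 lie higher.

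The other 4 members lay at middling levels. EXPA6 (AT2G28950) stood at 5.70 and 5.43 RPKM in controls and 6.92 and 7.16 RPKM after glutamate. Its groups did not overlap, yet its log2 change of 0.29 ± 0.12 did not pass (adjusted p = 0.141). EXPA3 (AT2G37640) was at 13.7 and 7.89 RPKM and at 8.57 and 9.31 RPKM, with both glutamate libraries between the controls. EXPA11 (AT1G20190) was at 5.99 and 2.32 RPKM and at 3.44 and 3.12 RPKM, and EXPA4 (AT2G39700) at 3.44 and 1.77 RPKM and at 2.86 and 2.10 RPKM, again between the controls. The log2 changes of these 3 genes were -0.20 ± 0.25, -0.17 ± 0.35 and -0.02 ± 0.26 (adjusted p = 0.593, 0.753 and 0.966). EXPA11 had a change of 0.37 without control replicate 1 and of -0.71 without control replicate 2. In the second fit the gene's own spread came from the glutamate libraries alone, without the 2.58-fold difference between the controls. The rest of the spread that limma used was shared over all genes.

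Of the 8 members tested, 3 were called lower, where 14.6% of all tested genes were, and 1 was called higher, where 16.3% were. The gene called higher, EXPA16, reached the minimum of 1 RPKM through the glutamate group. Its adjusted p in the limma fit without the filter was 0.0296. The median log2 change of the 8 was -0.19 and that of all tested genes -0.06. Libraries of the groups did not overlap in 7 of the 10 members, 3 lower and 4 higher, or in 5 of the 8 tested, where 66.2% of all tested genes, and 60.3% of genes without the filter, did not overlap. Such separation was thus about as frequent among the members as in the table.

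**Figure D3:**
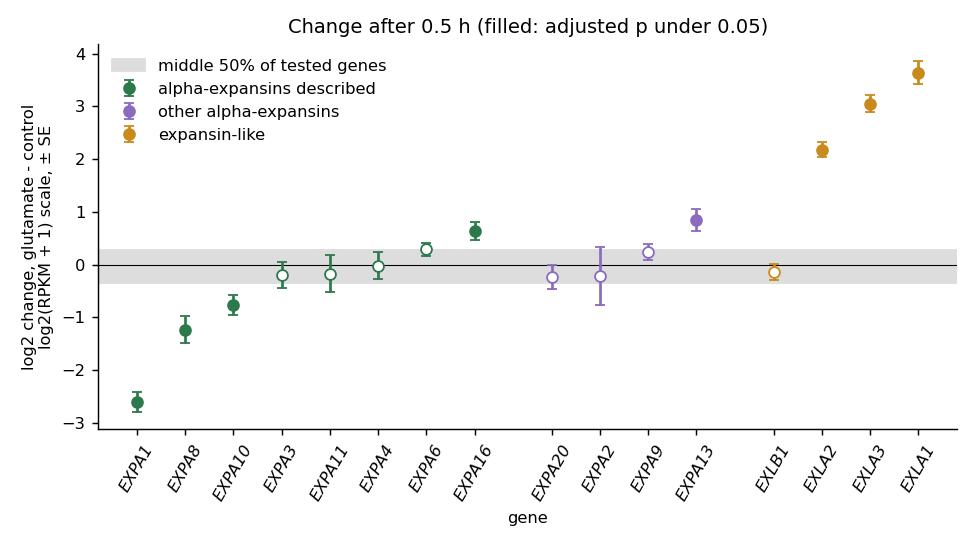
Log2 change from control to glutamate with its SE for every tested expansin gene, on the log2(RPKM + 1) scale; filled points have an adjusted p under 0.05 in limma and the grey band holds the middle 50% of all tested genes, from -0.34 to 0.28. EXPA1, EXPA8 and EXPA10 lie below the band, EXPA16 and EXPA13 above it and EXPA6, not called, at its upper edge, while 3 expansin-like genes lie at 2.18 to 3.64.

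With the fall of EXPA1 the makeup of the 10 transcripts differed between the groups. Summed over the 10 genes, the level was 136.3 and 93.8 RPKM in the controls and 43.1 and 43.6 RPKM after glutamate, a ratio of group means of 0.377. No p is given for a sum over chosen members, and the smallest that an exact permutation of 2 against 2 libraries allows is 0.33. EXPA1 made up 64.5% and 65.6% of the sum in controls and 25.7% and 26.2% after glutamate. Without EXPA1 the other 9 genes summed to 48.4 and 32.3 RPKM in the controls and to 32.05 and 32.18 RPKM after glutamate, just below the lower control. The share of EXPA3 went from 10.1% and 8.4% to 19.9% and 21.3%, and that of EXPA6 from 4.2% and 5.8% to 16.0% and 16.4%. EXPA5, EXPA15 and EXPA16 held at most 0.6% each of the control sum and 2.2% to 3.9% each after glutamate. In these whole-seedling samples, fewer cells of a type and less RNA per cell cannot be told apart.

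**Figure D4:**
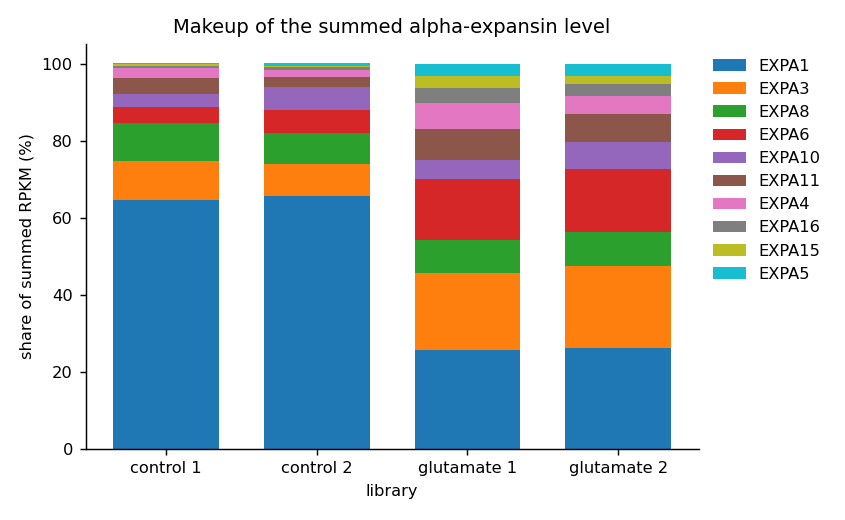
Share of each gene in the summed RPKM of the 10 alpha-expansins, in percent, for each of the 4 libraries. EXPA1 takes 64.5% and 65.6% of the control bars and 25.7% and 26.2% of the glutamate bars.

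In order of mean level, EXPA1 led in both groups. In the controls EXPA3 and EXPA8 followed, at 10.8 and 10.6 RPKM, with overlapping libraries. EXPA6, EXPA10, EXPA11 and EXPA4 came next, from 5.57 down to 2.60 RPKM, each overlapping the next. EXPA16, EXPA15 and EXPA5 came last, from 0.583 to 0.466 RPKM, and did not separate from each other. After glutamate the distance closed: EXPA1, at 11.3 RPKM, stood just above EXPA3, at 8.94 ± 0.523 RPKM, and EXPA6, at 7.04 ± 0.169 RPKM, passed EXPA8, at 3.77 RPKM, with no overlap between neighbours.

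The 2 control libraries differed in these genes. Control replicate 1 was at least 1.5-fold above control replicate 2 in 4 of the 8 tested members (EXPA3, EXPA4, EXPA8 and EXPA11, by 1.74-fold to 2.58-fold), where 5.41% of all tested genes were. It was above control replicate 2 at all in 7 of the 8, and in 8985 of 17750 tested genes. EXPA10, at a ratio of 0.775, was the exception. The difference was not particular to the members: it reached 1.5-fold in 3 of 4 tested genes among the other alpha-expansins, 3 of 7 proton pumps and 9 of 23 xyloglucan enzymes. Among the tested growth regulators it did so in 1 of 17. Between the glutamate libraries no tested member differed 1.5-fold, and their ratios ran from 0.708 to 1.36. Root markers moved the same way: all 6 tested were higher in control replicate 1, by 1.04-fold to 2.41-fold, and 2 of them by at least 1.5-fold. In glutamate replicate 1, 4 of 6 were higher, as were 9094 of 17750 tested genes. Shoot markers had a median ratio of 1.07 between the controls. The part of root material in the alpha-expansin values was not tested. Between the groups limma called none of the 6 tested root markers, where 30.8% of all tested genes were called. It called 3 of 8 shoot markers lower, where 14.6% of all tested genes were. Without control replicate 2, 2 root markers were lower, and without control replicate 1, 1 was higher. Without control replicate 1 the log2 change of EXPA1 was -2.35 and without control replicate 2 it was -2.86.

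**Figure D5:**
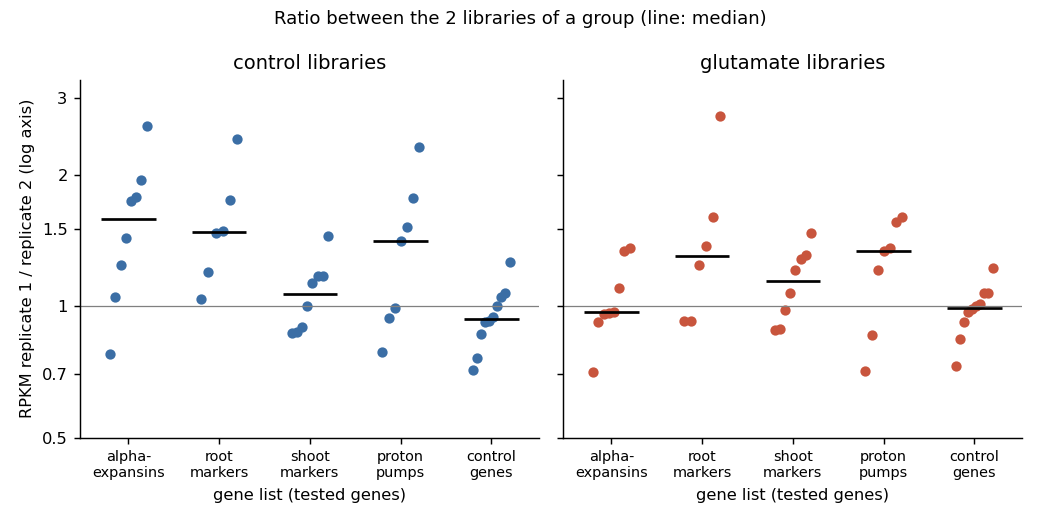
RPKM of replicate 1 over replicate 2 on a log axis, for the tested genes of 5 lists, in the control (left) and glutamate (right) libraries; points are genes and lines are medians. The alpha-expansins have a median of 1.58 between the controls, beside 1.48 for root markers and 0.935 for control genes, and a median of 0.967 between the glutamate libraries.

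The remaining 16 alpha-expansin genes summed to 16.5 and 10.1 RPKM in the controls and to 17.1 and 15.5 RPKM after glutamate, when their sum was above the level of EXPA1. Only 4 of them were tested, and EXPA13 was the 1 called, as higher, where 16.3% of all tested genes were. It stood at 4.01 and 2.59 RPKM in controls and 7.26 and 5.96 RPKM after glutamate (log2 change 0.84 ± 0.21, adjusted p = 0.0306). It lost that call in 5 of 15 alternatives, among them the fits that left out glutamate replicate 1 (adjusted p = 0.0715) and control replicate 2 (0.0669). EXPA9, at 3.80 and 2.94 RPKM in controls, measured 3.95 and 4.31 RPKM after glutamate (not called, adjusted p = 0.316). EXPA20 was tested and not called, but its deposited shared-read fraction of 0.614 makes its level uncertain. EXPA7 and EXPA18, the expansin genes of root hairs, were below the minimum, at 0.486 to 1.09 and 0.588 to 0.815 RPKM. EXPA17, also below it, was lower in the fit without the filter (adjusted p = 0.0476 in limma), where 8.92% of genes were. It went from 0.565 and 0.440 RPKM to 0.231 and 0.0852 RPKM. It was not called without the filter when the pseudocount was 0.1 or voom weights were used.

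Of 10 beta-expansin and expansin-like genes 4 were tested and 3 were higher, where 16.3% of all tested genes were. All 3 are of the expansin-like A group, for which no wall-loosening activity is established. EXLA1 (AT3G45970) went from 28.5 and 30.8 RPKM to 466 and 313 RPKM (log2 change 3.64 ± 0.21, adjusted p = 0.000205). EXLA3 (AT3G45960) went from 0.147 and 0.0187 RPKM, worth 4 and 0 reads, to 8.48 and 7.42 RPKM (adjusted p = 0.000141, or 0.00059 without the filter). It reached the minimum of 1 RPKM through the glutamate group alone. EXLB1 stood at 10.2 and 10.3 RPKM and at 8.27 and 10.3 RPKM (adjusted p = 0.529). All 6 beta-expansins were below the minimum. In the fit without the filter, EXPB2 was lower (log2 change -0.52 ± 0.08, adjusted p = 0.0121 in limma), where 8.92% of genes were. It stood at 0.993 and 0.943 RPKM in controls and at 0.339 and 0.398 RPKM after glutamate. Without the filter but with voom weights on recovered reads, no gene of this list was called lower.

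Xyloglucan endotransglucosylases, which cut and rejoin the xyloglucan tethers between microfibrils, went both ways: of 33 genes 23 were tested, 5 were higher and 5 lower. That is 21.7% each way, beside 16.3% higher and 14.6% lower of all tested genes. XTH23 (AT4G25810) rose from 12.8 and 16.4 RPKM to 1269 and 895 RPKM, and XTH31 (AT3G44990) fell from 11.0 and 6.82 RPKM to 2.56 and 3.00 RPKM (log2 changes 6.11 ± 0.22 and -1.36 ± 0.23). XTH18 had the largest rise of the list (log2 change 7.06), and the abundant XTH22 and XTH24 rose by 5.89 and 1.02, the latter losing its call without the filter (adjusted p = 0.0505). XTH7 fell from 34.2 and 28.3 RPKM to 16.5 and 16.9 RPKM (adjusted p = 0.00752).

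None of 7 tested genes of plasma membrane proton pumps was called by limma, where 30.8% of all tested genes were, nor did any reach an unadjusted p under 0.05. AHA1 stood at 227 and 161 RPKM in controls and at 165 and 121 RPKM after glutamate, and AHA2 at 246 and 139 RPKM and at 143 and 107 RPKM, with adjusted p of 0.227 and 0.211. Without control replicate 2 the log2 change of AHA2 was -0.99. Its own spread in that fit came from the glutamate libraries alone, with the 1.77-fold difference between the controls removed, and limma shared the rest over all genes. Of 21 transcription factors and regulators that promote or restrain growth, 17 were tested, and their median log2 change was -0.42. Of the 17, 7 were lower, where 14.6% of all tested genes were, and 1 was higher, where 16.3% were. The 7 were not all promoters of growth. They included IBH1 (AT2G43060), a regulator that restrains growth (log2 change -1.24 ± 0.29, adjusted p = 0.0246 in limma). HBI1 (AT2G18300), a bHLH factor known to activate expansin genes, fell from 59.2 and 51.3 RPKM to 22.6 and 16.6 RPKM (log2 change -1.46 ± 0.18, adjusted p = 0.00299). BEE3 (AT1G73830), a bHLH factor of the brassinosteroid response, fell from 36.8 and 33.0 RPKM to 7.32 and 5.95 RPKM (log2 change -2.24 ± 0.15, adjusted p = 0.000319). BZR1 (AT1G75080), a transcription factor of brassinosteroid signalling, rose from 13.1 and 12.7 RPKM to 22.2 and 21.2 RPKM (adjusted p = 0.00825). PIF5 and PIF7, phytochrome-interacting factors with the highest means over the 4 libraries in the list, did not pass (adjusted p = 0.172 and 0.186).

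Coding sequences of the 10 members were 759 to 828 bases long, with 3 coding exons in 8 genes and 4 in EXPA1 and EXPA15, from the longest coding sequence that RefSeq gives for each gene. Identity over the 45 pairs ran from 63.4% to 81.1%, with a median of 70.1%. EXPA4 and EXPA16 were the closest pair, at 81.1%, with log2 changes of -0.02 and 0.63, of which the second was called. EXPA15 was nearest to EXPA10 at 76.2%, and EXPA8 to EXPA1 at 75.7%.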

How the data were processed

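The deposited table holds 1 RPKM value per gene and library; the authors scaled it with TMM (trimmed mean of M-values), per the file's name. The submitters' processing notes name TAIR10 and SAMtools without their roles. The sources used here do not give the aligner, the counting or whether strand was used. For genes whose deposited maxMultiRatio is 0, value times gene length is an odd multiple of a lowest level in each library, which makes a value (reads + 0.5) over length and effective size. Dividing back gave whole reads, within 0.01, for 99.9% or more of these genes; with shared genes included, 85.3% to 86.2% came out whole. The deposited fraction maxMultiRatio is not defined in the file header; it was read as the share of reads that also match elsewhere.

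Values were tested as log2(RPKM + 1) with limma 3.58.1 in R 4.3.3, two-sided, with an intensity trend and Benjamini-Hochberg adjustment over the 17750 genes whose mean reached 1 RPKM; the threshold for a call was an adjusted p of 0.05. The scale understates changes of low genes. The steps were also run on simulated reads, drawn with a small spread and without the shared deviation of same-numbered libraries. That run checks the code and not the calls made here. The members and gene lists were chosen with earlier results of these data known. All members are named. From the lists of other expansins, xyloglucan enzymes, proton pumps and growth regulators, the 2 largest called changes each way and the 2 highest levels are named. EXPA7, EXPA17, EXPA18, EXPA20, EXPB2, IBH1, PYK10 and the markers under 1 RPKM were added after their values were seen. All 130 list entries matched the table by locus identifier. Promoters, gene positions and coding sequences come from RefSeq's TAIR10.1 with Biopython 1.88; the deposited table holds no coordinates.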

Additional observations from a re-analysis of the deposited data

How the results depend on the processing

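EXPA1 and EXPA8 stayed called lower in all 16 alternatives, of which 2 (no filter together with a pseudocount of 0.1 or with voom weights on recovered reads) were chosen after seeing the data. With all 4 libraries in the fit, the count of members called lower stayed at 2 or 3, always among EXPA1, EXPA8 and EXPA10. Fits that left out a library did not always call the same members. The count of members called higher, 1, was 2 without the filter (also in both added alternatives) and with the replicate number as a block. It was 0 with quantile normalization, with equal library totals and when centred on the control genes. A minimum mean of 5 RPKM left EXPA16 and EXPA10, among others, untested, so that neither could be called there. The 11 control genes include HEL, with 0 or 1 reads in each library and a deposited shared-read fraction of 1. HEL weighed as much in the centring as any other control gene. With the replicate block 4445 genes were higher and 5280 lower, and with equal library totals 4361 were lower. Libraries with the same number deviated together over genes (r = 0.60), but the labels give no shared source, so the numbers are not taken as pairs; under the block EXPA6 (adjusted p = 0.0347), AHA1 (0.00273), AHA2 (0.00432), PIF5 (0.027) and PIF7 (0.00881) passed, and 3 root markers were lower and 1 higher and 7 shoot markers lower. Over the other alternatives 0 to 2 root markers were called lower, 0 to 1 higher, and 1 to 5 shoot markers lower. The ratio of the summed level, 0.377, ran from 0.318 to 0.462 when libraries were left out in turn, the highest without control replicate 1. Signs turned only for genes that were not called in the limma fit described above. These were EXPA4 with the median log2 ratio set to 0 (0.03), and, without 1 library, EXPA3 (0.16, range -0.57 to 0.16), EXPA4 (0.32 and 0.14, range -0.36 to 0.32), EXPA11 (0.37, range -0.71 to 0.37) and EXLB1 (0, range -0.28 to 0). The cause was not tested. With 2 libraries per group, small changes such as that of EXPA6 cannot be resolved, and at 14 to 41 reads per library EXPA5, EXPA15 and EXPA16 carry wide counting intervals.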
